A study of Mus musculus with 12 samples.

Results

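The genes described here are 47 mouse genes that act at the G1/S transition and in DNA replication. They were chosen by symbol from a fixed list, and each symbol was matched to its Ensembl gene ID. All 47 were found in a count table of 56980 gene IDs. For description they fall into 8 roles: the MCM helicase (6 genes), origin licensing (5), helicase activation and initiation (7), polymerases and primase (6), the sliding clamp with its loader and lagging-strand enzymes (8), nucleotide supply (5), the G1/S switch (6), and a group of 4 genes for the checkpoint, chromatin and uracil repair. The cells were mouse bone marrow-derived macrophages, grown from bone marrow for 7 days in medium conditioned by L929 cells, a fibroblast line that secretes the macrophage growth factor M-CSF. The donor mice were labelled either wildtype (WT) or RankCre-Regnaes3cKO (cKO). The second name is that of a conditional knockout of Regnase-3, the RNA-binding protein encoded by Zc3h12c, with Cre under the name of Rank, the receptor encoded by Tnfrsf11a. Cultures were unstimulated (M0) or received interferon-gamma (10 ng/ml) and lipopolysaccharide (LPS, 100 ng/ml), which is called M1. The 12 libraries form 4 groups of 3: WT_M0 (replicates 4, 5 and 6), cKO_M0 (1, 2 and 3), WT_M1 (10, 11 and 12) and cKO_M1 (7, 8 and 9). The study's stated interest was in what Regnase-3 does when Rank-positive macrophages polarize. A control that carries Cre alone is not described. Whether replicates are separate animals or cultures is not stated in the labels. P-values therefore reflect how these libraries vary, which may be technical only.

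Before a cell can copy its DNA, the origin recognition complex, CDC6 and CDT1 load the ring-shaped MCM helicase onto origins, a step called licensing that geminin blocks by binding CDT1. At the G1/S transition, cyclin E with its kinase releases the E2F transcription factors from the retinoblastoma protein, and E2F raises many of the genes that build the replication machinery. CDC45 and the GINS complex then activate the helicase, primase and polymerase alpha lay down primers, and polymerases delta and epsilon extend the strands with PCNA as their sliding clamp. Macrophages derived from bone marrow divide in culture under M-CSF, and LPS and interferon-gamma are each known to halt that division.

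Library totals lay between 41721452 and 42197986 counts. Levels below are CPM, that is, counts put on a common library size by edgeR's TMM factors, and differences are log2 fold changes, each with its standard error (SE) or its 95% interval. A gene is called changed at an adjusted p under 0.05 in edgeR's quasi-likelihood test, with Benjamini-Hochberg adjustment over the 15110 tested genes. All 47 genes passed the filter on low counts. The targeted gene, Zc3h12c, was at 17.2, 16.4 and 15.6 CPM in WT_M0 and 13.6, 18.5 and 14.8 in cKO_M0, which overlap. It was at 176, 192 and 159 CPM in WT_M1 and 98.4, 104 and 127 in cKO_M1, where every cKO library was lower. The change was -0.07 (adjusted p = 0.81) in M0 and -0.68 (adjusted p = 0.00101) in M1. These totals per gene include exons outside any deleted part. The first principal component, with 85.1% of the variance, separated M0 from M1, and the second held 4.33%. Summed macrophage markers lay between 15613 and 20047 CPM in all libraries, and summed M1 markers went from 102–165 CPM in M0 to 15005–20375 CPM in M1. Summed markers of T and NK cells, erythroid cells and mast cells were each below 0.46 CPM in every library, and those of neutrophils lay between 13.6 and 39.2 CPM.

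Divided by gene length, the clamp gene Pcna stood first of the 47 in WT_M0, at 102 ± 9.54 CPM per kilobase (SD, n = 3). Rrm2, the small subunit of ribonucleotide reductase, followed at 51.6 ± 7.85. The helicase genes Mcm6, Mcm3 and Mcm5 were next, at 47.9 ± 9.13, 41.6 ± 6.19 and 40.8 ± 6.68. Pcna stood clear of Rrm2 by more than their SDs, whereas neighbours among Rrm2, Mcm6, Mcm3 and Mcm5 did not differ beyond their SDs. At the low end were Orc1, the largest subunit of the origin recognition complex, at 1.38 ± 0.146, and the uracil-DNA glycosylase gene Ung at 1.24 ± 0.107, which also overlap. After stimulation the order was another. In WT_M1 Pcna was again first, at 144 ± 10.2 CPM per kilobase, and Ccne1, which encodes cyclin E1, had moved from place 25 to place 2, at 42.7 ± 4.52. The licensing factor gene Cdt1 stood at 18.3 ± 1.86, Gins4 of the GINS complex at 16.6 ± 1.61 and the transcription factor gene E2f1 at 11.6 ± 0.574, of which Cdt1 and Gins4 do not differ beyond their SDs. Rrm2 had gone from place 2 to place 32 and the thymidine kinase gene Tk1 from place 15 to place 39, while the repressor gene E2f7 was last at 0.0274 ± 0.00868.

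**Figure D1:**
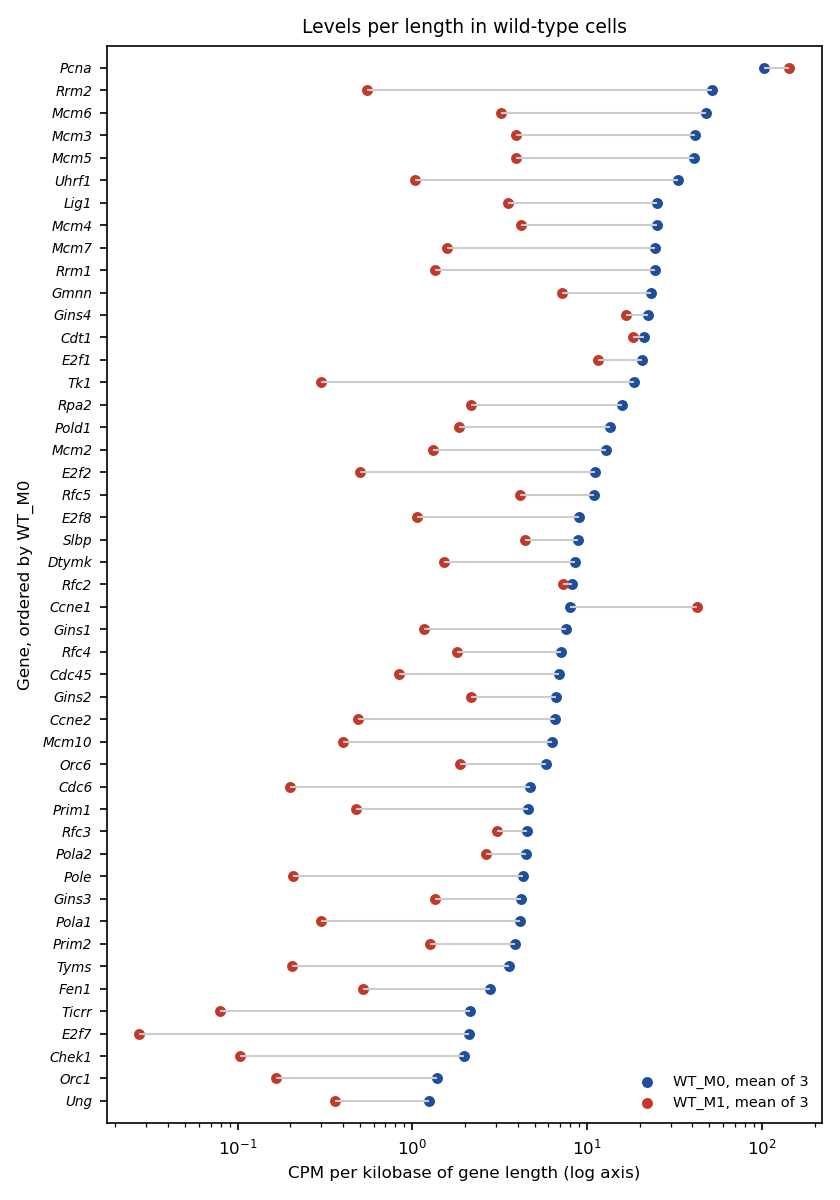
Mean level per gene length (CPM per kilobase, log axis) of the 47 genes in WT_M0 and WT_M1, ordered by the WT_M0 mean of 3 libraries. Pcna is highest in both states, and Ccne1 lies far above its neighbours in WT_M1, at 42.7 against 7.93 in WT_M0.

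Many replication genes are known E2F targets, and CCAAT boxes, which the factor NF-Y binds, are common in promoters of cell cycle genes, so the promoters were searched for both. The windows came from RefSeq on build GRCm38.p6, not the build of the counts, and run from 250 bases before to 50 bases after the start site. Of the 47 genes, 38 had a window, and Ccne2, Gins1, Gins2, Gins4, Gmnn, Mcm4, Pole, Prim2 and Rfc2 had none. An E2F-type heptamer (the letters TTCCCGC, or instead the letters TTCGCGC, or the letters TTGCCGC, or else the letters TTGGCGC, on either strand) was found in 24 of 38 (63.2%), against 10.9% of the 27025 genes with a window and 19.0% of 10266 other tested genes. The pentamer CCAAT, on either strand, was also found in 24 of 38 (63.2%), against 41.1% and 42.9%, and 17 of the 38 held both. Median GC content was 59.7% in the windows of these genes and 60.3% in those of the other tested genes. The 24 genes held 45 heptamer matches, of which 5 pairs overlap each other and 4 overlap a CCAAT. Such matches are letters in a window and show no binding.

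The 250 bases upstream of 5 genes are shown 5′ to 3′ on the gene's strand, with matches in capitals, because these genes span the range of the stimulation response described below. Mcm6 and Mcm5 are helicase genes rich in heptamers, Rrm2 had the largest fall of the 47 in WT, and Ccne1 and, with TMM scaling, Pcna were higher after stimulation in WT.
Mcm6 promoter, chr1:128359706-128359955, minus strand: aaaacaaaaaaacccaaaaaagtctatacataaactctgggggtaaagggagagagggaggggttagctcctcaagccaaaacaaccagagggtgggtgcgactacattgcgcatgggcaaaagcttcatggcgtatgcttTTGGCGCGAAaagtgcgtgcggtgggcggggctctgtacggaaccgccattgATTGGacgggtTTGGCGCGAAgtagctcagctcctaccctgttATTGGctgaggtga
Mcm5 promoter, chr8:75109259-75109508, plus strand: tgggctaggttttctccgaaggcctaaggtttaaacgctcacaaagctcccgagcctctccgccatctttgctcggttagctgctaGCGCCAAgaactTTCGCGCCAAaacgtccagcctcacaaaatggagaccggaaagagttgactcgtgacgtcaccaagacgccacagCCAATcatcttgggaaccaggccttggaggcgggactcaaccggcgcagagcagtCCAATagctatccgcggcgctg
Rrm2 promoter, chr12:24708004-24708253, plus strand: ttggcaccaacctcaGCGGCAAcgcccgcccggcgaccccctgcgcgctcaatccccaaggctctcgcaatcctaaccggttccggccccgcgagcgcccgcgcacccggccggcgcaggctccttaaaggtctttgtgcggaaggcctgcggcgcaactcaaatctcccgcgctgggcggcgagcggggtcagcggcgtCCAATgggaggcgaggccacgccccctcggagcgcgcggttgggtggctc
Pcna promoter, chr2:132253181-132253430, minus strand: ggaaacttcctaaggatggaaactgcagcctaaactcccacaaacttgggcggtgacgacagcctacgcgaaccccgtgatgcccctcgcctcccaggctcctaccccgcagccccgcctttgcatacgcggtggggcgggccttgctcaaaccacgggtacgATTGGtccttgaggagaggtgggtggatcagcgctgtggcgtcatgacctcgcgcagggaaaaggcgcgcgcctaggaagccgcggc
Ccne1 promoter, chr7:38107491-38107740, minus strand: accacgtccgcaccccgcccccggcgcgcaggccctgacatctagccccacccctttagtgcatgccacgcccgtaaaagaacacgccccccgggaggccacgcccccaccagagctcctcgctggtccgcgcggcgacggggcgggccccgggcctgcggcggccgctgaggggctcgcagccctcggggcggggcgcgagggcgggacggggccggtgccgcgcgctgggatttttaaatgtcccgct
Upstream of its start Mcm6 holds 4 heptamers in 2 overlapping pairs, at -109 and -106 and at -46 and -43 counted from the start site, with CCAAT at -57 and -14. Mcm5 holds 3 heptamers, at -164, -152 and -149, and CCAAT at -77 and -22. Rrm2 has 1 heptamer at -235 and a CCAAT at -50. In these letters Pcna has a CCAAT at -87 and no heptamer, and Ccne1 has neither. The genes printed do not stand for all 38. In their whole windows Tk1 and Tyms hold neither motif, and their log2 fold changes with stimulation in WT were -5.93 and -4.12. Cdt1, which was not called in WT, holds 2 heptamers. How matches and responses go together over the 38 was not tested.

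The first question was how the 47 genes responded to LPS and interferon-gamma. In WT, 43 of 47 fell, 2 rose (Ccne1 and Pcna) and 2 were not called (Cdt1 and Rfc2), against 37.1% of all tested genes called lower and 34.2% called higher. In cKO, 45 fell, Ccne1 rose and Pcna was not called, against 36% of all genes lower and 34.2% higher. The median log2 fold change over the 47 was -2.87 in WT, a level of 0.136 times that in M0, and -3.35 in cKO, a level of 0.0983 times, where the medians over all genes were -0.07 and -0.04. Summed over the 47, levels were 2700.2, 3322 and 2685 CPM in WT_M0 and 917, 892 and 899 in WT_M1. In cKO the sums were 3307, 3787 and 3805 CPM in M0 and 866, 817 and 812 in M1. M1 thus held 31.1% of the M0 sum in WT and 22.9% in cKO, and Pcna alone made up 8.46% of the WT sum in M0 and 38.2% in M1. In bulk RNA, fewer dividing cells and less of these RNAs per cell cannot be told apart. TMM factors averaged 1.21 and 1.22 in the M0 groups and 0.808 and 0.840 in the M1 groups. With library totals alone the median over all genes moved to -0.65 in WT and -0.58 in cKO, with 2769 genes higher and 9000 lower in WT and 2778 and 8691 in cKO. The medians of the 47 then were -3.46 and -3.88.

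**Figure D2:**
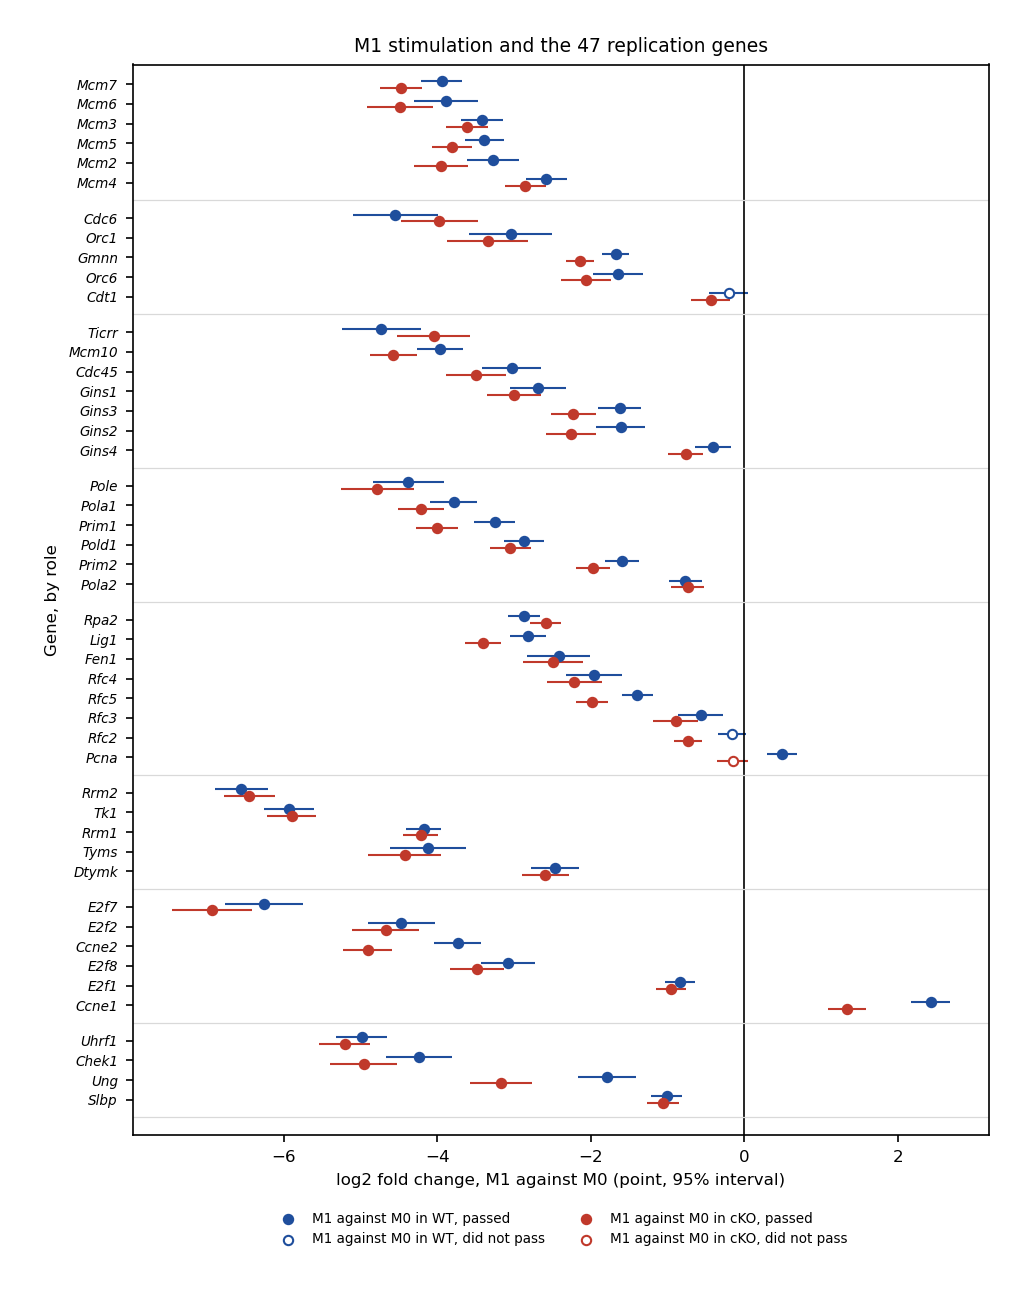
Log2 fold change of M1 against M0 with its 95% interval for each of the 47 genes, grouped by role, in WT and in cKO (3 libraries a group), with filled points for genes called changed. Most points lie below 0, the nucleotide supply genes among the lowest, and Ccne1 stands at 2.43 in WT and 1.33 in cKO.

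All 6 subunits of the MCM helicase, which unwinds DNA at the fork, fell in both genotypes, with medians of -3.40 in WT and -3.88 in cKO. Mcm7 (ENSMUSG00000029730) was at 97.9, 126 and 100.0 CPM in WT_M0, 120.4, 140.2 and 138 in cKO_M0, 6.26, 8.05 and 6.71 in WT_M1 and 5.74, 6.47 and 5.72 in cKO_M1. Mcm2 (ENSMUSG00000002870), a marker of licensed cells, was at 76.7, 107 and 82.1 CPM in WT_M0, 90.7, 120.1 and 113 in cKO_M0, 8.45, 10.97 and 7.97 in WT_M1 and 6.14, 7.03 and 7.78 in cKO_M1. For both genes every M1 library lay far below every M0 library. Mcm7 fell, with log2 fold changes of -3.95 (SE 0.13, adjusted p = 3.32e-13) in WT and -4.47 in cKO. Mcm2 fell, with log2 fold changes of -3.28 (SE 0.16, adjusted p = 3.64e-11) in WT and -3.95 in cKO. The smallest fall of the 6 was that of Mcm4, at -2.58 and -2.85. Summed MCM levels in M1 were 9.20% of those in M0 in WT.

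Origin licensing genes divided into strong and weak responders. Cdt1 (ENSMUSG00000006585), whose protein brings MCM to origins, was at 58.5, 76.4 and 63.4 CPM in WT_M0, 67.3, 89.1 and 79.6 in cKO_M0, 55.6, 52.6 and 63.8 in WT_M1 and 52.7, 57.7 and 63.7 in cKO_M1. Gmnn (ENSMUSG00000006715), which encodes the CDT1 inhibitor geminin, was at 34.5, 35.7 and 31.2 CPM in WT_M0, 51.6, 48.4 and 53.7 in cKO_M0, 10.4, 10.8 and 10.5 in WT_M1 and 11.7, 11.7 and 11.4 in cKO_M1. The Cdt1 ranges of WT_M0 and WT_M1 overlap, and those of cKO_M0 and cKO_M1 do not. Cdt1 was not called in WT (log2 fold change -0.20, 95% interval -0.46 to 0.05, adjusted p = 0.141) and fell, with a log2 fold change of -0.44 (adjusted p = 0.00429) in cKO, but the difference between these effects was not called (adjusted p = 0.435). Gmnn fell, with log2 fold changes of -1.68 (SE 0.08) in WT and -2.14 (SE 0.08) in cKO. Cdc6 (ENSMUSG00000017499), the loader that works with CDT1, was at 21.7, 31.0 and 21.4 CPM in WT_M0, 27.2, 36.8 and 33.4 in cKO_M0, 1.11, 0.481 and 1.55 in WT_M1 and 2.27, 1.90 and 2.01 in cKO_M1. Its M1 libraries all lay at or below 2.27 CPM, and it fell, with log2 fold changes of -4.55 and -3.98 (SE 0.26 and 0.24). Orc1 had -3.04 and -3.35, and Orc6, the smallest subunit of the same complex, -1.65 and -2.07, all called.

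All 7 genes of helicase activation and initiation fell in both genotypes, with medians of -2.69 and -3.00. Mcm10 (ENSMUSG00000026669), which encodes an initiation factor outside the MCM ring, was at 43.9, 57.4 and 43.7 CPM in WT_M0, 58.2, 73.7 and 64.5 in cKO_M0, 3.28, 3.07 and 2.93 in WT_M1 and 2.61, 3.04 and 2.57 in cKO_M1. No M1 library came near the lowest M0 library. Mcm10 fell, with log2 fold changes of -3.96 (SE 0.14, adjusted p = 8.79e-13) in WT and -4.58 in cKO. The 4 GINS genes fell less evenly: Gins1 had -2.69 in WT and -3.00 in cKO, Gins2 -1.61 and -2.26, Gins3 -1.63 and -2.23, and Gins4 -0.41 and -0.77. Gins2 shares 67.3% of its exon bases with Gse1 on the opposite strand, and no source used here gives the strand option of the counting, so its counts are uncertain. Cdc45, the helicase cofactor, had -3.03 and -3.49, and Ticrr, which helps recruit it, -4.74 and -4.05.

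Polymerase and primase genes also fell without exception in both genotypes, with medians of -3.06 and -3.53. Pola1 (ENSMUSG00000006678), the catalytic subunit of polymerase alpha, was at 32.6, 42.8 and 34.2 CPM in WT_M0, 43.0, 52.1 and 46.6 in cKO_M0, 2.84, 2.77 and 2.32 in WT_M1 and 2.22, 2.81 and 2.60 in cKO_M1. Prim1 (ENSMUSG00000025395), the catalytic primase subunit, was at 18.8, 18.6 and 15.8 CPM in WT_M0, 23.0, 25.4 and 25.1 in cKO_M0, 1.87, 1.74 and 1.93 in WT_M1 and 1.65, 1.62 and 1.301 in cKO_M1. In both genes M0 and M1 libraries were far apart. Pola1 fell, with log2 fold changes of -3.79 (SE 0.14, adjusted p = 1.67e-12) in WT and -4.21 in cKO, and Prim1 at -3.26 and -4.01. Their partner subunits in the same complex moved less, Pola2 at -0.77 and -0.74 and Prim2 at -1.60 and -1.97. Pole, the catalytic subunit of polymerase epsilon, had -4.38 and -4.78, and Pold1, that of polymerase delta, -2.87 and -3.05.

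Of the 4 genes that were not called lower in WT, Pcna and Rfc2 belong to the clamp, its loader and the lagging-strand enzymes. Pcna (ENSMUSG00000027342), a widely used marker of S phase, was at 248, 267 and 221 CPM in WT_M0, 327, 340.1 and 384 in cKO_M0, 367, 319 and 348 in WT_M1 and 339, 313 and 293 in cKO_M1. WT_M1 lay above WT_M0 without overlap, whereas cKO_M1 and cKO_M0 overlap and all 3 cKO_M0 libraries lay above all 3 WT_M0 libraries. Pcna rose by 0.49 (SE 0.09, adjusted p = 0.000229) in WT and was not called in cKO (-0.15, 95% interval -0.35 to 0.04, adjusted p = 0.153). With library totals alone the WT value became -0.094 (adjusted p = 0.364), so the rise was called with TMM scaling and not with library totals. A processed copy, Pcna-ps2, is counted as a gene of its own with at most 213 counts in a library, and reads of the copies may be split between them.

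Rfc2 (ENSMUSG00000023104), a subunit of the clamp loader, was at 52.4, 51.2 and 50.9 CPM in WT_M0, 56.7, 55.1 and 60.4 in cKO_M0, 43.2, 51.8 and 43.0 in WT_M1 and 36.1, 32.5 and 35.1 in cKO_M1. WT_M0 and WT_M1 overlap, and the cKO_M1 libraries were the lowest of the 12. It was not called in WT (-0.16, 95% interval -0.34 to 0.02) and fell, with a log2 fold change of -0.73 (adjusted p = 1.38e-06) in cKO. Rfc2 shares 15.1% of its exon bases with Lat2 on the opposite strand. With stimulation Lat2 had 0.83 (adjusted p = 2.82e-05) in WT and -0.10 (adjusted p = 0.494) in cKO. How far reads of Lat2 enter the Rfc2 counts was not tested. Rpa2 (ENSMUSG00000028884), a subunit of the protein that coats single-stranded DNA, was at 45.7, 51.2 and 45.7 CPM in WT_M0, 56.7, 61.2 and 67.0 in cKO_M0, 6.84, 6.37 and 6.21 in WT_M1 and 10.99, 10.0 and 9.70 in cKO_M1. Lig1 (ENSMUSG00000056394), the ligase that joins Okazaki fragments, was at 93.6, 123 and 99.7 CPM in WT_M0, 118, 136 and 125 in cKO_M0, 13.9, 16.2 and 14.8 in WT_M1 and 11.6, 11.9 and 12.2 in cKO_M1. Both fell, with no overlap between M0 and M1 in either genotype: Rpa2 at -2.87 (SE 0.10) in WT and -2.59 in cKO, and Lig1 at -2.82 (SE 0.11) and -3.41. The other loader genes fell less, Rfc3 at -0.57 and -0.90, Rfc4 at -1.96 and -2.22 and Rfc5 at -1.39 and -1.99. Rfc5 shares 10.7% of its exon bases with Wsb2 on the opposite strand, which had 0.67 and 0.52, and shared reads were not tested. The flap endonuclease gene Fen1, at -2.42 and -2.50, shares 78.8% of its exon bases with an antisense gene that had few counts. Fen1 also shares 5.37% with Tmem258, and Rfc4 shares 12.7% with Eif4a2. Both neighbours lie on the opposite strand and had more counts than Fen1 and Rfc4, and shared reads were not tested.

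Nucleotide supply showed the deepest loss. Rrm2 (ENSMUSG00000020649) was at 127, 168 and 134 CPM in WT_M0, 182, 204 and 196 in cKO_M0, 1.64, 1.503 and 1.41 in WT_M1 and 1.65, 2.55 and 2.43 in cKO_M1. Tk1 (ENSMUSG00000025574), which salvages thymidine, was at 101, 101 and 85.9 CPM in WT_M0, 109, 101 and 128 in cKO_M0, 1.14, 1.77 and 1.79 in WT_M1 and 1.65, 1.96 and 2.04 in cKO_M1. Tyms (ENSMUSG00000025747), which encodes thymidylate synthase, was at 22.7, 23.5 and 18.8 CPM in WT_M0, 30.3, 30.6 and 34.5 in cKO_M0, 1.64, 1.20 and 0.879 in WT_M1 and 1.76, 1.87 and 0.792 in cKO_M1. In all 3 genes every M1 library was at or below 2.55 CPM. Rrm2 fell 94.0-fold in WT (log2 -6.56, SE 0.16, adjusted p = 1.80e-14) and 87.5-fold in cKO, and Tk1 fell 61.1-fold and 59.8-fold. Tyms had log2 fold changes of -4.12 and -4.43, Rrm1, the large subunit of ribonucleotide reductase, -4.18 and -4.22, and Dtymk, the thymidylate kinase gene, -2.47 and -2.59. Their summed level in M1 was 4.20% of that in M0 in WT and 4.10% in cKO, the smallest share of the 8 roles in both.

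Among the genes of the G1/S switch, the 2 cyclin E genes moved in opposite directions. Ccne1 (ENSMUSG00000002068) was at 19.4, 25.03 and 18.9 CPM in WT_M0, 28.4, 30.8 and 34.1 in cKO_M0, 107, 128 and 107 in WT_M1 and 85.4, 73.2 and 76.5 in cKO_M1. Ccne2 (ENSMUSG00000028212), the gene of cyclin E2, was at 21.4, 26.4 and 20.6 CPM in WT_M0, 34.1, 35.3 and 39.1 in cKO_M0, 1.84, 1.77 and 1.49 in WT_M1 and 0.994, 1.25 and 1.36 in cKO_M1. Every M1 library was above every M0 library for Ccne1 and below every M0 library for Ccne2. Ccne1 rose by 2.43 (SE 0.12, adjusted p = 4.51e-11) in WT and by 1.33 (SE 0.12, adjusted p = 4.51e-08) in cKO. Ccne2 fell, with log2 fold changes of -3.74 (SE 0.14) and -4.91 (SE 0.15). Of the E2F genes, the activator E2f1 (ENSMUSG00000027490) was at 61.3, 69.4 and 64.8 CPM in WT_M0, 63.5, 76.0 and 77.4 in cKO_M0, 36.9, 38.1 and 34.6 in WT_M1 and 37.3, 34.7 and 40.1 in cKO_M1. The repressor gene E2f7 (ENSMUSG00000020185) was at 15.8, 23.6 and 17.7 CPM in WT_M0, 20.7, 27.5 and 22.6 in cKO_M0, 0.234, 0.331 and 0.176 in WT_M1 and 0.1704, 0.199 and 0.198 in cKO_M1. For both the M1 libraries lay below the M0 libraries, and all 6 had at most 0.331 CPM of E2f7. E2f1 fell, with log2 fold changes of -0.84 and -0.95, whereas E2f7 fell 76.5-fold in WT and 123-fold in cKO (log2 -6.26 and -6.94, SE 0.24 and 0.25). E2f2, another activator, had -4.47 and -4.68, and E2f8, a repressor like E2f7, -3.08 and -3.48.

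In the last role, Uhrf1 (ENSMUSG00000001228), which carries DNA methylation through replication, was at 121, 169 and 133 CPM in WT_M0, 148, 199 and 179 in cKO_M0, 5.06, 3.94 and 4.31 in WT_M1 and 4.69, 4.43 and 5.09 in cKO_M1. Chek1 (ENSMUSG00000032113), the checkpoint kinase gene, was at 8.59, 10.7 and 8.23 CPM in WT_M0, 11.3, 12.7 and 13.3 in cKO_M0, 0.643, 0.391 and 0.410 in WT_M1 and 0.483, 0.369 and 0.340 in cKO_M1. Both were low in all 6 M1 libraries, and Uhrf1 fell, with log2 fold changes of -4.99 in WT and -5.21 in cKO (SE 0.16 in each), Chek1 at -4.24 and -4.96. Slbp, whose protein binds histone mRNA, had -1.01 and -1.06, and Ung -1.79 and -3.17, all 4 values called. Markers of other cells moved beside these falls. Summed over 10 genes, myeloid progenitor markers lay between 11.3 and 14.2 CPM in WT_M0 and 2.81 and 3.01 in WT_M1, and between 7.40 and 11.8 in cKO_M0 and 0.966 and 1.301 in cKO_M1. The sum of 7 B and plasma cell markers went from 53.7–70.6 to 3.16–5.20 CPM in WT and from 32.9–62.4 to 0.455–0.794 CPM in cKO, and 3 of the 7, Cd79a, Ms4a1 and Pax5, were below 1 CPM in every library. Their part in the falls was not tested.

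**Figure D3:**
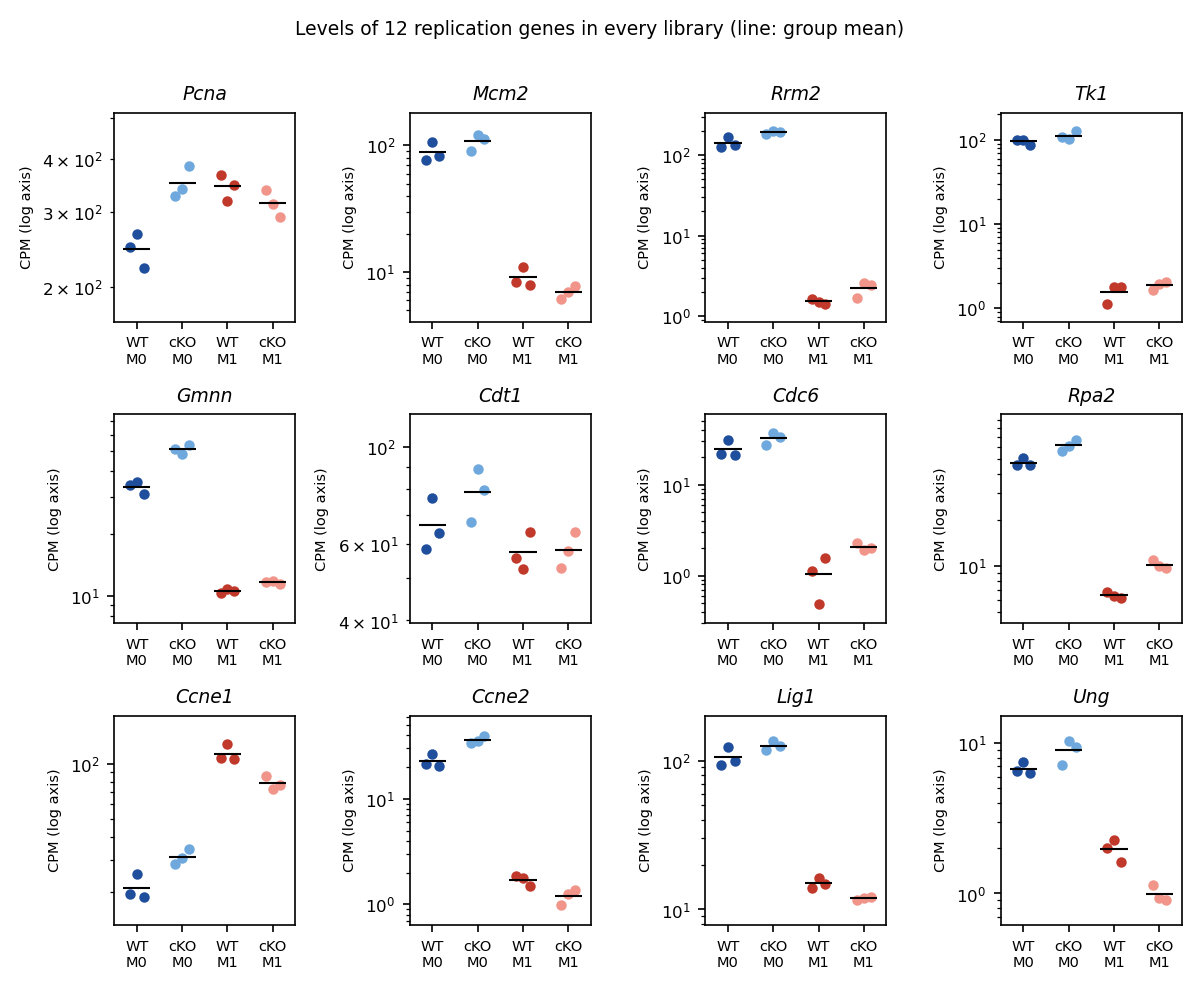
Level of 12 of the genes in each of the 12 libraries (CPM, log axis), with a line at each group's mean of 3 libraries. Rrm2 and Tk1 lie below 3 CPM in all M1 libraries, Pcna stays between 221 and 384 CPM in all 12, and Ccne1 is the gene whose M1 libraries lie above its M0 libraries in both genotypes.

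The second question was whether the unstimulated knockout cells differed from WT in these genes. In M0, 9 of 47 were called, all of them higher in cKO, against 0.662% of all tested genes called higher and 0.953% called lower. All 47 log2 fold changes were positive, from 0.14 to 0.67, with a median of 0.34 (a 1.27-fold level), where the median over all genes was 0.01. At an unadjusted p under 0.05 there were 34, all higher. DESeq2 and limma-voom each called 16 and found none lower. The shares of all tested genes above are those of edgeR's adjusted test, and those at the unadjusted p or with the other tools are not given here. In 26 of 47 every cKO_M0 library was above every WT_M0 library, against 13.3% of all genes, and in the other 21 the groups overlap. The changes were small beside those of stimulation, at most 0.67 on the log2 scale. Of all tested genes, 51.0% had a positive value in M0. In the neighbouring lists described below, all 41 other fork and initiation genes and all 24 mitosis genes were positive too. So were 16 of 18 other nucleotide synthesis genes, 17 of 19 genes of the G1, RB and E2F circuit list and 4 of 7 CDK inhibitor genes.

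By the libraries given above, geminin's gene Gmnn was 31.2 to 35.7 CPM in WT_M0 and 48.4 to 53.7 CPM in cKO_M0. It rose by 0.60 (SE 0.08, adjusted p = 0.00497), the smallest p of the 47. Orc6 (ENSMUSG00000031697) was at 15.5, 15.3 and 12.5 CPM in WT_M0, 21.7, 19.1 and 25.1 in cKO_M0, 4.24, 5.05 and 4.54 in WT_M1 and 6.28, 4.20 and 5.26 in cKO_M1. All 3 cKO_M0 libraries were above the WT_M0 libraries, and it rose by 0.61 (SE 0.14, adjusted p = 0.0463). The other licensing genes, Cdt1, Cdc6 and Orc1, were not called (0.25, 0.40 and 0.45). Both cyclin E genes rose without overlap between genotypes, Ccne2 by 0.67 (SE 0.11, adjusted p = 0.0175) and Ccne1 by 0.56 (SE 0.12, adjusted p = 0.039), whereas E2f1 had 0.15 (adjusted p = 0.387), E2f2 0.17, E2f7 0.31 and E2f8 0.31, which were not called. Ccne2 shares 17.4% of its exon bases with Ints8, and Orc6 shares 6.93% with Vps35, both on the opposite strand. In M0 Ints8 had 0.12 (adjusted p = 0.57) and Vps35 0.14 (adjusted p = 0.322), and shared reads were not tested.

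At the fork, Pcna rose by 0.51 (SE 0.09, adjusted p = 0.0223), Rpa2 by 0.38 (SE 0.09, adjusted p = 0.0463) and Prim1 by 0.47 (SE 0.10, adjusted p = 0.0432). Gins1 (ENSMUSG00000027454) was at 12.1, 12.7 and 9.51 CPM in WT_M0, 15.8, 16.2 and 20.6 in cKO_M0, 1.70, 1.71 and 1.91 in WT_M1 and 2.47, 2.30 and 1.78 in cKO_M1. Dtymk (ENSMUSG00000026281) was at 24.3, 22.0 and 20.5 CPM in WT_M0, 33.3, 31.2 and 35.4 in cKO_M0, 3.80, 4.78 and 3.46 in WT_M1 and 6.62, 5.42 and 4.50 in cKO_M1. In M0 both were higher in every cKO library than in any WT library. Gins1 rose by 0.61 (SE 0.14, adjusted p = 0.0463) and Dtymk by 0.58 (SE 0.13, adjusted p = 0.0442). The MCM helicase was a role with none of its 6 genes called by edgeR, DESeq2 or limma-voom, with 3 at an unadjusted p under 0.05 and a median of 0.29. The checkpoint, chromatin and uracil repair group likewise had none of its 4 called by edgeR or DESeq2 (1 by limma-voom, 3 at an unadjusted p under 0.05). Mcm5 (ENSMUSG00000005410) had the smallest p of the helicase genes, at 149, 194 and 147 CPM in WT_M0, 179, 221 and 210.2 in cKO_M0, 15.7, 15.03 and 15.8 in WT_M1 and 15.3, 14.7 and 13.6 in cKO_M1. Here WT_M0 replicate 5 was above cKO_M0 replicate 1, and the difference of 0.32 (95% interval 0.09 to 0.55) was not called. Chek1 separated the genotypes and had 0.44 (adjusted p = 0.119). Pold1 (ENSMUSG00000038644) was at 58.3, 76.5 and 61.6 CPM in WT_M0, 64.7, 77.2 and 74.4 in cKO_M0, 8.13, 9.62 and 9.14 in WT_M1 and 8.58, 9.64 and 7.87 in cKO_M1. It had the smallest difference of the 47, 0.14 (95% interval -0.09 to 0.37), with overlapping groups.

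**Figure D4:**
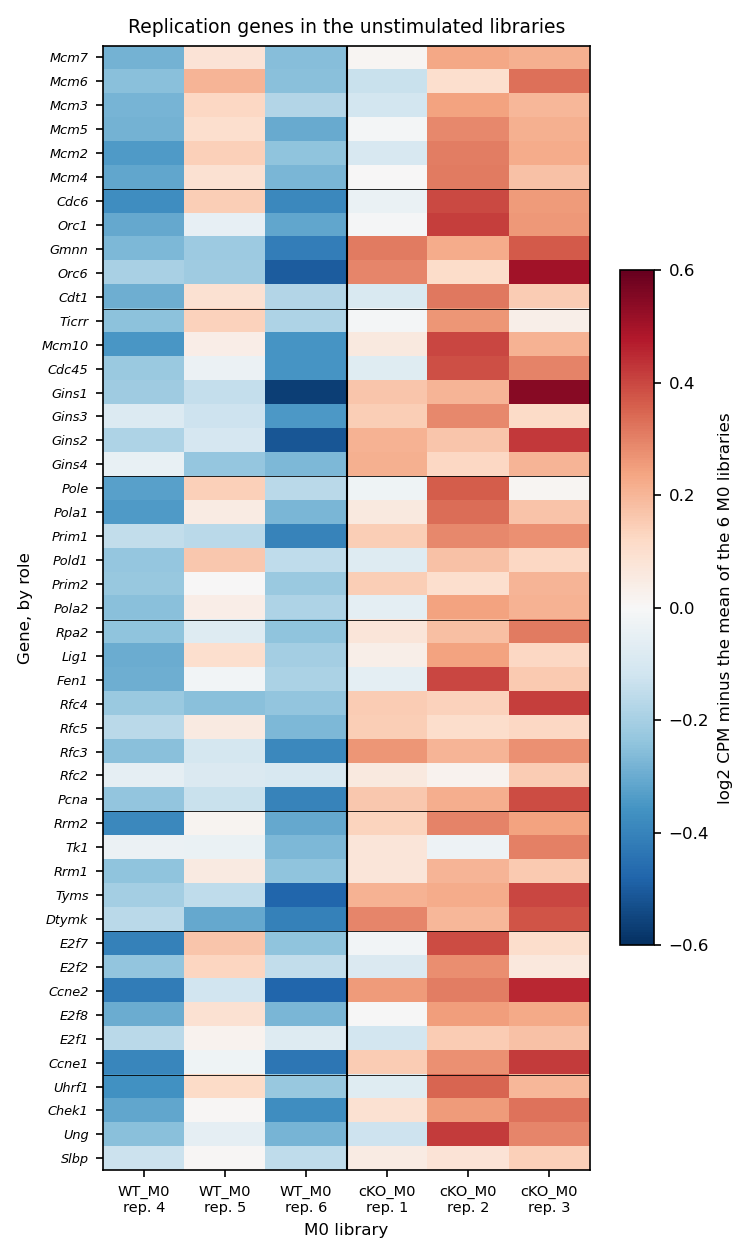
Log2 CPM of the 47 genes in the 6 M0 libraries, each minus the gene's mean over the 6, as colours from low to high. WT_M0 replicates 4 and 6 are low and cKO_M0 replicates 2 and 3 high for most genes, while WT_M0 replicate 5 and cKO_M0 replicate 1 lie between.

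The libraries of M0 were not alike within their groups. WT_M0 replicate 5 was the highest WT_M0 library for 39 of 47 genes, and cKO_M0 replicate 1 was the lowest cKO_M0 library for 35. In all 21 genes whose groups overlap, WT_M0 replicate 5 was the highest WT_M0 library and cKO_M0 replicate 1 the lowest cKO_M0 library. Other libraries crossed as well in some genes, such as WT_M0 replicate 5 and cKO_M0 replicate 3 in Pold1. In E2f1, WT_M0 replicate 6 was also above cKO_M0 replicate 1. WT_M0 replicates 4 and 6 were both below all cKO_M0 libraries for 46 of 47. That count leaves out 1 of the 3 WT_M0 libraries, and the share of all tested genes for it is not given here. Beside this, the B and plasma cell markers summed to 70.6, 53.7 and 68.5 CPM in WT_M0 and 62.4, 32.9 and 34.6 in cKO_M0, and the progenitor markers to 12.4, 14.2 and 11.3 CPM in WT_M0 and 11.8, 7.40 and 10.2 in cKO_M0. Neutrophil markers, 8 genes, summed to 24.8, 19.5 and 23.5 CPM in WT_M0 and 22.1, 13.6 and 14.7 in cKO_M0. The immunoglobulin gene Igkc, 1 of those B cell markers and a minor part of their sum, was at 7.55, 3.42 and 6.71 CPM in WT_M0 and 6.16, 0.0785 and 0 in cKO_M0. Stromal markers reached 5.09 CPM in WT_M0 replicate 4 and at most 0.236 CPM in the other M0 libraries. Their part in the difference was not tested. Leaving out 1 library moved the 9 calls to 0 (without cKO_M0 replicate 3 or WT_M0 replicate 6, where 0 of all tested genes were called higher), 1 (without WT_M0 replicate 4), 2 (without cKO_M0 replicate 2), 8 (without cKO_M0 replicate 1) or 16 (without WT_M0 replicate 5). For the other counts the shares of all tested genes are not given here. Without both WT_M0 replicate 5 and cKO_M0 replicate 1, a choice made after seeing the data, 21 were called, with a median of 0.54. These libraries lay nearest the other genotype in most of the 47, so a larger median follows from the choice itself. The share of all tested genes in this fit is not given here, and nothing is read from it. Over 14 alternatives, that later choice among them, Gmnn was called in 12, Ccne2 in 11, Ccne1, Gins1, Pcna, Prim1 and Rpa2 in 10, Orc6 in 8 and Dtymk in 7.

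The third question was the same contrast after stimulation. In M1, 8 of 47 were called: Rpa2, Cdc6 and Dtymk were higher in cKO and Ccne1, Ung, Rfc2, Rfc5 and Lig1 lower, where 8.98% of all tested genes were called higher and 9.67% lower. The median over the 47 was -0.03, with 23 positive and 24 negative values, and 0.02 over all genes. At an unadjusted p under 0.05 there were 7 higher and 7 lower. The share called is near that of all genes, and nothing is read from it about the 47 as a list. In 15 the genotypes did not overlap, against 17.4% of all genes with cKO above and 16.3% with cKO below. With library totals alone in place of TMM, 7 were higher and 4 lower (all genes 1982 and 1239). Beside these values, the B and plasma cell markers summed to 3.16, 5.20 and 4.89 CPM in WT_M1 and 0.455, 0.794 and 0.651 in cKO_M1, the progenitor markers to 2.81, 3.01 and 2.81 CPM and 0.966, 0.993 and 1.301, and the neutrophil markers to 34.3, 23.3 and 27.2 CPM and 39.2, 34.2 and 32.6. Their part was not tested.

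**Figure D5:**
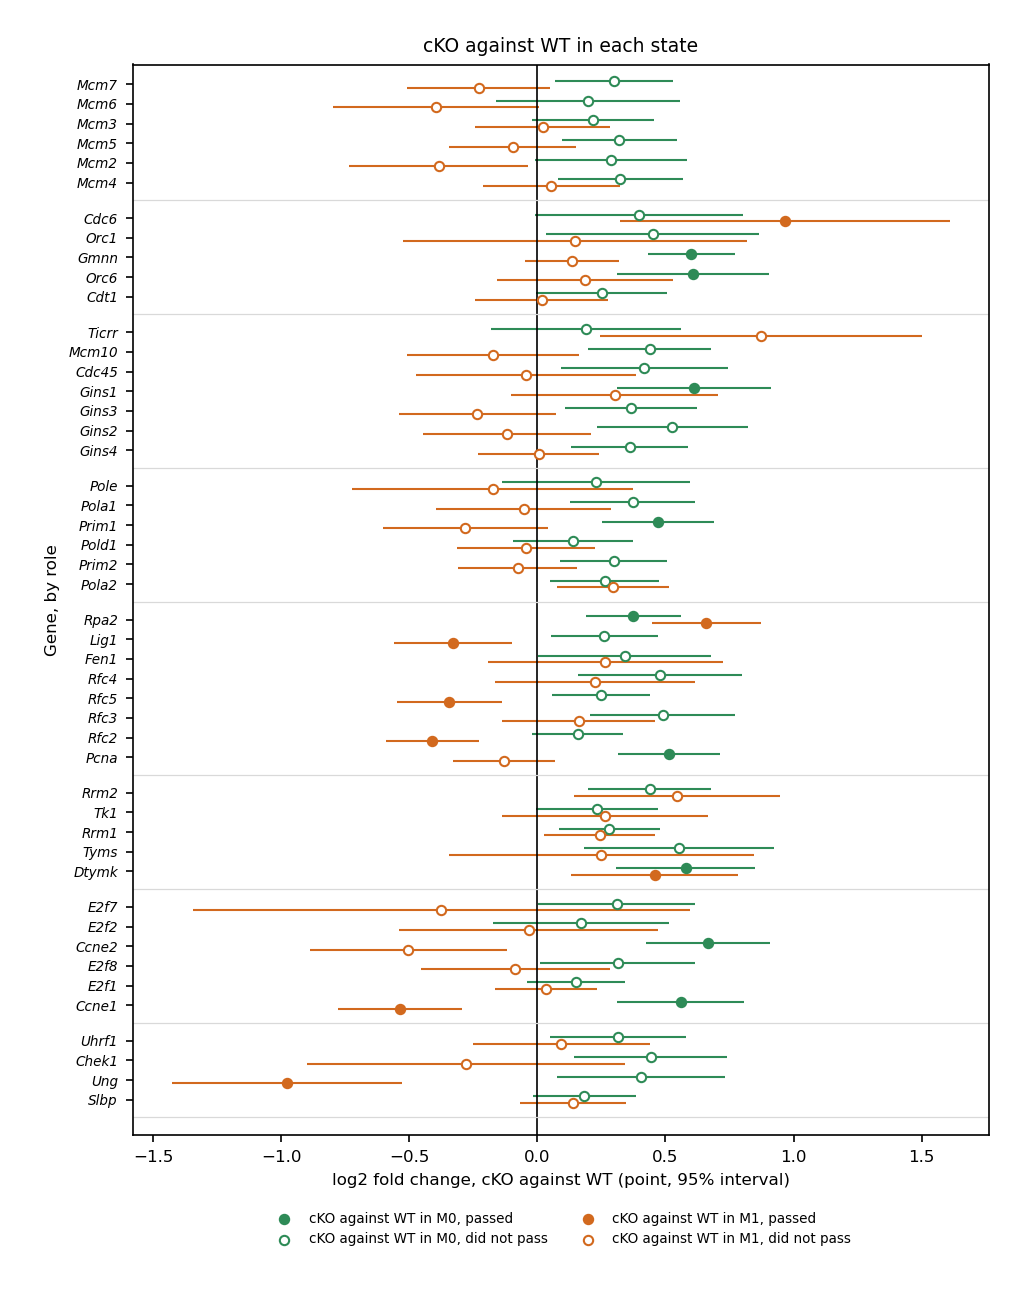
Log2 fold change of cKO against WT with its 95% interval for the 47 genes by role, in M0 and in M1 (3 libraries a group), with filled points for genes called changed. In M0 all 47 points lie above 0, and in M1 they lie on both sides, with Rpa2 and Cdc6 above 0 and Ung, Ccne1 and Rfc2 below.

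Rpa2, which coats single-stranded DNA, had the smallest p. Its cKO_M1 libraries, at 9.70 to 10.99 CPM, were all above the WT_M1 libraries at 6.21 to 6.84 CPM, and it rose by 0.66 (SE 0.10, adjusted p = 0.000396). Cyclin E1's gene Ccne1 was lower in every cKO_M1 library and fell, with a log2 fold change of -0.54 (SE 0.11, adjusted p = 0.0042). Ung (ENSMUSG00000029591), which removes uracil from DNA, was at 6.51, 7.45 and 6.38 CPM in WT_M0, 7.11, 10.3 and 9.47 in cKO_M0, 2.02, 2.25 and 1.61 in WT_M1 and 1.14, 0.936 and 0.905 in cKO_M1. Its cKO_M1 libraries were the lowest of the 12, and it fell, with a log2 fold change of -0.98 (SE 0.21, adjusted p = 0.0047). Rfc2 fell, with a log2 fold change of -0.41 (SE 0.09, adjusted p = 0.00387) and its partner in the clamp loader, Rfc5, at -0.34 (SE 0.10, adjusted p = 0.0206). Rfc2 overlaps Lat2 on the opposite strand and Rfc5 overlaps Wsb2. Lat2 itself had -0.85 (adjusted p = 0.000393) and Wsb2 -0.45 (adjusted p = 0.0018), and how far their reads enter the counts of the loader genes was not tested.

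Lig1 fell, with a log2 fold change of -0.33 (SE 0.11, adjusted p = 0.0463), with cKO_M1 at 11.6 to 12.2 CPM and WT_M1 at 13.9 to 16.2 CPM. Cdc6, the MCM loader gene, rose by 0.97 (SE 0.30, adjusted p = 0.0361) at levels near 1 to 2 CPM. Dtymk rose by 0.46 (SE 0.15, adjusted p = 0.049), although WT_M1 replicate 11 lay above cKO_M1 replicate 9. Ticrr (ENSMUSG00000046591) was at 19.1, 24.9 and 19.9 CPM in WT_M0, 22.5, 27.2 and 23.2 in cKO_M0, 0.643, 0.872 and 0.879 in WT_M1 and 1.02, 1.11 and 2.26 in cKO_M1. The genotypes did not overlap in M1, where cKO_M1 replicate 9 stood highest, and the difference of 0.87 (SE 0.30) was not called (adjusted p = 0.0511). Ccne2, at -0.50 (adjusted p = 0.064), and Rrm2, at 0.54 (adjusted p = 0.0576), were not called either. Mcm2 had -0.39 (95% interval -0.74 to -0.04) and Pcna -0.13 (95% interval -0.33 to 0.07). Pola2 (ENSMUSG00000024833) was at 34.2, 41.8 and 35.8 CPM in WT_M0, 39.0, 48.0 and 46.97 in cKO_M0, 20.6, 22.5 and 22.5 in WT_M1 and 28.1, 27.2 and 25.1 in cKO_M1. In M1 every cKO library was the higher, and 0.29 (adjusted p = 0.0584) was not called. Rpa2, Ccne1, Ung and Rfc2 were called in all 13 alternatives. Cdc6, Lig1 and Dtymk were each lost in 8 of 13, and Rfc5 without cKO_M1 replicate 7 or WT_M1 replicate 11. The 5 lower calls became 3 without either of those libraries, and the 3 higher calls became 1 without WT_M1 replicate 10.

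The fourth question was whether the effect of the knockout differed between states. For 9 of 47 the effect in M1 was called lower than in M0 and for none higher by edgeR, against 4.14% of all tested genes lower and 4.02% higher. At an unadjusted p under 0.05 there were 20 lower and 1 higher. DESeq2 called 14 and 0, and limma-voom 8 and 0. For these the shares of all genes are not given here. The median difference was -0.37, with 41 of 47 negative, and 0.00 over all genes. Of all tested genes, 49.6% had a positive difference. In the neighbouring lists, 35 of 41 other fork and initiation genes and 18 of 24 mitosis genes were negative too. So were 14 of 18 other nucleotide synthesis genes, 14 of 19 genes of the G1, RB and E2F circuit list and 4 of 7 CDK inhibitor genes. Both comparisons of stimulation and both of genotype share these 12 libraries, so the difference between states is not separate from the effects above. Both cyclin E genes were higher in cKO in M0, and in M1 Ccne1 was lower and Ccne2 not called, with differences of -1.10 (SE 0.16, adjusted p = 0.00177) for Ccne1 and -1.17 (SE 0.21, adjusted p = 0.00497) for Ccne2. Ung had the largest difference, -1.38 (SE 0.26, adjusted p = 0.00597). For Pcna it was -0.64 (adjusted p = 0.00957), for Rfc2 -0.57 (0.0106), for Rfc5 -0.59 (0.0139), for Prim1 -0.75 (0.021), for Lig1 -0.59 (0.0235) and for Gmnn -0.47 (0.0251). Lat2, the neighbour of Rfc2, had -0.93 (adjusted p = 0.00701) and Wsb2, that of Rfc5, -0.15 (adjusted p = 0.466).

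Gins3 (ENSMUSG00000031669) was at 12.1, 11.7 and 10.1 CPM in WT_M0, 14.2, 15.7 and 13.9 in cKO_M0, 3.89, 3.10 and 3.99 in WT_M1 and 3.35, 2.72 and 3.25 in cKO_M1. Its cKO libraries were above WT in M0 and overlapped with WT in M1, and the difference of -0.60 (SE 0.19) was not called (adjusted p = 0.0624). Mcm2, at -0.67 (adjusted p = 0.0679), was not called. The positive values belonged to Ticrr at 0.68, Cdc6 at 0.57, Rpa2 at 0.29, Rrm2 at 0.10, Pola2 at 0.03 and Tk1 at 0.03, none of them called (adjusted p = 0.241 for Ticrr, 0.356 for Cdc6 and 0.203 for Rpa2). The nucleotide supply genes had differences from -0.30 for Tyms to 0.10 for Rrm2. Pcna, Rfc2, Rfc5, Ccne1, Ccne2 and Ung were called in all 19 alternatives, Prim1 in 16, Lig1 in 15 and Gmnn in 14. Among the 19 is the fit without WT_M0 replicate 5 and cKO_M0 replicate 1, chosen after seeing the data.

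Neighbouring parts of the pathway were read from 5 further lists, whose members are not among the 47, and their counts are set beside the shares of all tested genes: 37.1% lower and 34.2% higher with stimulation in WT, 36% and 34.2% in cKO, and 0.662% higher in cKO in M0. Of 41 other replication fork and initiation genes, 31 fell and 7 rose with stimulation in WT and 33 and 6 in cKO (medians -1.78 and -2.15). Exo1, a nuclease gene, had -6.13 and -6.21, the checkpoint mediator gene Clspn -5.50 and -5.79, and the histone chaperone gene Asf1b -3.49 and -3.97. Between genotypes, 2 of the 41 were called in M0, Chaf1b (chromatin assembly) at 0.49 and Asf1b at 0.38, both higher. In M1, 1 was higher and 6 lower in cKO, against 8.98% of all tested genes higher and 9.67% lower, so the 7 calls are near the background. Among the 6 were the histone chaperone gene Nasp at -0.75, Atad2 at -0.68, the maintenance methyltransferase gene Dnmt1 at -0.41 and Dbf4, the activator of the CDC7 kinase, at -0.30. The higher gene was Mcmbp, which binds MCM, at 0.32. The list's medians between genotypes were 0.28 in M0 and -0.13 in M1.

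Of 18 other nucleotide synthesis genes, 13 fell and 2 rose with stimulation in WT (median -1.57) and 14 and 3 in cKO (median -1.81). The purine synthesis gene Paics had -2.17 and -2.37, whereas Samhd1, whose enzyme breaks down deoxynucleotides, had 2.01 and 2.35 and the mitochondrial folate gene Mthfd2 2.2 and 1.22. Between genotypes in M0, the smallest adjusted p of the list was 0.0805, for the CTP synthase gene Ctps at 0.68. In M1 the list had 2 higher, Cad of pyrimidine synthesis at 0.63 and Gart of purine synthesis at 0.38, and 2 lower (all tested genes 8.98% and 9.67%), Mthfd2 at -0.63 and Impdh2 of guanine synthesis at -0.41.

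Of 19 G1 cyclins, kinases and genes of the RB and E2F circuit, 11 fell and 5 rose in WT (median -0.54) and 11 and 4 in cKO (median -1.05), where 34.2% of all tested genes rose in each genotype and 37.1% fell in WT. Ccnd2, the gene of cyclin D2, had 3.62 and 3.13 with stimulation, the E2F partner gene Tfdp1 -2.32 and -2.44, and Cdk2, the kinase of cyclin E, -2.03 and -1.55. In M0, 3 were higher in cKO: Ccnd2 at 1.10, Ccnd1 at 0.78 and Tfdp1 at 0.35. In M1, Cdk2 at 0.73 and Ccnd3 at 0.38 were higher (8.98% of all genes), and Myc at -0.82, Skp2 at -0.30 and Cdk4 at -0.26 were lower (9.67% of all genes). The list of 7 CDK inhibitors had 2 higher and 1 lower in M1: Cdkn1a, which encodes p21, at 0.75, Cdkn1b, which encodes p27, at 0.43, and Cdkn1c, which encodes p57, at -2.77. In M0 Cdkn1a was the member called, at 0.49. With stimulation and TMM scaling the 7 went both ways, 4 lower and 2 higher in WT and 5 lower and 2 higher in cKO. Cdkn2c, which encodes p18, had -5.71 in WT and -5.98 in cKO, and Cdkn1c 1.22 and -0.94, all 4 values called.

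All 24 mitosis genes fell with stimulation in both genotypes, with medians of -5.11 in WT and -5.69 in cKO. Ccnb2, a mitotic cyclin gene, had -7.50 and -7.59, and Cdc20, which activates the anaphase-promoting complex, -7.27 and -7.14. Their summed level in M1 was 5.56% of that in M0 in WT, against 31.1% for the 47 replication genes. Of the WT_M1 sum of the 47, Pcna made up 38.2% and Ccne1 12.6%. Between genotypes, 1 of 24 was called in M0, the spindle checkpoint gene Mad2l1 at 0.56. In M1, 1 was higher, Kif20a at 0.67, and 4 were lower: Mki67, a marker of cycling cells, at -1.04, Ccnb1 at -0.89, Tpx2 at -0.47 and Bub1b at -0.36. All tested genes had 8.98% higher and 9.67% lower in M1, and the 5 calls of 24 are near that. The medians between genotypes were 0.24 in M0 and 0.07 in M1. Kif20a, Mcmbp and Gart were named after their values were seen.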

How the data were processed

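RNA was sequenced from 12 libraries of bone marrow-derived macrophages, 3 in each of 4 groups taken from the sample labels. The authors deposited raw counts for each gene, not normalized. Per the submitters' processing notes, the tools were HISAT2 2.2.1, featureCounts 2.0.3, Trimmomatic 0.39 and SAMtools 1.16.1, on genome build GRCm39. No source used here gives the annotation release, the strand option or the handling of reads with several matches. Where genes overlap on opposite strands or have near-identical copies, reads may therefore be shared. Of the counts from 1 to 10, 60.9% were even, so halved counts were among the alternatives. The deposited gene length, in bases per the file headers, was used only for levels per kilobase. Of 56980 IDs, 52073 matched a symbol.

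Counts were tested in R 4.3.3 with edgeR 4.0.16 (glmQLFit and glmQLFTest). Genes were kept by filterByExpr (minimum count 10, minimum total 15), libraries were scaled by TMM, and all 12 libraries entered a single model with a mean for each group. P-values were adjusted by Benjamini-Hochberg over 15110 genes, and a gene was called at an adjusted p under 0.05. The SE is the log2 fold change divided by the square root of its F statistic. The contrasts were M1 against M0 in each genotype, cKO against WT in each state, and the difference between the last pair. The fit was tested on simulated data. Alternatives were library totals alone, DESeq2's size factors, DESeq2 1.42.0, limma-voom (limma 3.58.1), no filter, the groups of a contrast alone, and leaving out each library. A fit without both WT_M0 replicate 5 and cKO_M0 replicate 1 was added after seeing the data. The members and lists were chosen with earlier results of these data known. Some genes of the other lists are not reported here.

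Values in every library were given for the member of each role with the smallest p in each contrast, the 3 with the largest change each way, and Pcna and Mcm2. From the other lists up to 4 members with the smallest p in each contrast were named. Gene overlaps came from a GENCODE annotation of another build and promoters from RefSeq on GRCm38.p6, matched by name and used with their own coordinates only. Library totals differed by little, whereas TMM factors averaged 1.21 and 1.22 in the M0 groups and 0.808 and 0.840 in the M1 groups, so effective library sizes were smaller in M1. Intervals are 95% confidence intervals of the log2 fold change, built from its SE, which rests on the spread between libraries.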

Additional observations from a re-analysis of the deposited data

Results flagged for a closer look

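The values here are differences between the effect of the knockout in M1 and its effect in M0, on the log2 scale, for genes where the test of that difference (edgeR's quasi-likelihood test, adjusted over all genes) was passed. A negative value means that cKO minus WT was lower in M1 than in M0. Of all tested genes, 4.14% passed with a negative value and 4.02% with a positive value, and the counts below are to be read beside these shares. Of the 47 replication genes, 9 passed: Ung at -1.38, Ccne2 at -1.17, Ccne1 at -1.10, Prim1 at -0.75, Pcna at -0.64, Rfc5 at -0.59, Lig1 at -0.59, Rfc2 at -0.57 and Gmnn at -0.47. Of the 41 other fork and initiation genes 8 passed, all negative, and those with the smallest p were Nasp (-1.12), Atad2 (-0.87), Chaf1b (-0.83) and Dbf4 (-0.55). Of 18 other nucleotide synthesis genes 2 passed, Mthfd2 (-0.98) and Impdh2 (-0.75). Of 24 mitosis genes 6 passed, all negative, and the 4 with the smallest p had -1.18 for Mki67, -1.13 for Ccnb1, -0.83 for Tpx2 and -0.82 for Ube2c. Of the 19 G1 cyclin, kinase, RB and E2F circuit genes Myc passed, at -1.14. Of 7 CDK inhibitor genes 2 passed and went both ways, Cdkn1c at -2.16 and Cdkn1b at 0.56, the latter being the one positive value. Adjusted p-values of the 22 genes named here lay between 0.00175 and 0.0314.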

How the results depend on the processing

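The fall with stimulation was the steadiest result. Over 611 combinations of a gene and an alternative in each genotype, 607 in WT and 610 in cKO kept direction and side of the threshold. With library totals alone the medians were -3.46 in WT and -3.88 in cKO, 1 gene was called higher in WT, and Pcna in WT reversed to -0.094. Leaving out 1 library moved the cKO median between -3.46 and -3.25. The number higher in cKO in M0, 9, was 16 with DESeq2, 16 with limma-voom, 23 with no low-count filter and 14 with only the M0 groups fitted, and ran from 0 to 16 when 1 library was left out. Without both WT_M0 replicate 5 and cKO_M0 replicate 1, chosen after seeing the data, it was 21, with a median of 0.54. That larger median follows from the choice itself. Of 658 combinations in M0, this last fit included, 38 lost a call and 59 gained it. In M1 the number higher, 3, was 7 with library totals alone, 5 with DESeq2, 5 with no low-count filter, and 1 each with limma-voom, halved counts and only the M1 groups, and 1 to 3 when 1 library was left out, where the number lower was 3 to 7. For the difference between states the number lower, 9, was 14 with DESeq2, 15 with no low-count filter and 6 to 13 when 1 library was left out. The cause of these moves was not tested. Genes near 1 CPM in M1, such as Cdc6, Tyms and Ticrr, have wide intervals. No paired analysis was possible because the replicate numbers 1 to 12 are not shared between groups.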
